A study of Saccharomyces cerevisiae with 8 samples.

Results

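The comparison set 2 cultures of budding yeast (Saccharomyces cerevisiae) given L-carnitine and hydrogen peroxide together against 2 untreated cultures, and asked which transcripts changed and whether the combined change equalled the sum of the changes that each agent gave alone. Its members were chosen by the sample titles: the 2 arrays of the combined group and the 2 control arrays, 4 of the 8 arrays of the series, with the 2 carnitine arrays and the 2 peroxide arrays used for the sum. Total RNA from each culture was read on an Affymetrix yeast array, and 5324 genes with 1 probe set each were tested. All 8 cultures were of BY4742, a haploid laboratory strain recorded with the alleles his3, leu2, lys2 and ura3, and all were harvested in mid-log growth in synthetic complete medium with dextrose. The control group had no addition. The carnitine group was grown with carnitine, at a dose that the series design gives as 100 mg/L and the treatment protocol as 1000 mg/L. The peroxide group was exposed to 0.4 mM peroxide for 30 min before harvest, and the combined group was grown with carnitine and then exposed to the same peroxide dose for the same time. The series calls its replicates biological duplicates, so the p-values measure the spread between duplicate cultures of 1 strain, pooled over the 4 groups.

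Hydrogen peroxide oxidises thiols in proteins. In budding yeast the transcription factor Yap1 is activated by such oxidation and switches on thioredoxin, glutathione and peroxidase genes, while the general stress factors Msn2 and Msn4 switch on chaperone, catalase and storage carbohydrate genes, and growth and division genes are turned down. Carnitine is a quaternary amine that carries activated acetyl groups between the cytosol, peroxisomes and mitochondria. Yeast takes it up through Agp2, loads and unloads it with the acetyltransferases Cat2, Yat1 and Yat2, and moves the acetylated form into mitochondria through the carrier Crc1.

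The deposited signals are linear and ran from 3.20 to 79918 over all probe sets. The medians of the arrays over these genes were 3044 to 3198, and between 5300 and 5313 of the tested genes were above the floor, a signal of 4.14 that 95% of the arrays' probe sets for fission yeast did not exceed. The median absolute log2 difference between the duplicate arrays of a group was 0.0898 in the control, 0.0904 with carnitine, 0.0984 with peroxide and 0.0865 with both. LEU2, LYS2 and URA3 read 3.87 to 4.09 on every array, at the floor, whereas HIS3 read 10505 to 17056. The genotype field says MATa, but the α-cell receptor gene STE3 read 16046 to 27503 and the a-cell receptor gene STE2 only 84.3 to 241. The a-factor gene MFA2 read 5.48 to 14.8 and the a-cell gene ASG7 was at the floor. Of the other a-cell genes, BAR1 read 10.2 to 16.9 and AGA2 5.60 to 13.2. MFA1 read 82.0 to 166 and STE6 43.7 to 357, well above the floor. Signals of different genes come from different probes, so the levels of these strain genes are given as read, and no test compared genes.

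Both agents together changed most of the measured transcripts. A gene was called where its limma adjusted p was below 0.05. Of the 5324 tested genes 1870 rose (35.1%) and 2073 fell (38.9%), 3943 in all (74.1%), and 1381 did not pass. At least 2-fold changes were called for 676 that rose and 572 that fell, and changes of at least 8-fold for 104 and 45. The arrays of the combined and control groups did not overlap in 4664 genes (87.6%). The median change over all tested genes was -0.03 on the log2 scale and the median SE 0.0914. Leaving out each array in turn gave between 1671 and 1871 that rose and between 1854 and 2069 that fell, and 3295 of the 3943 calls held without each of the 8 arrays. The split between rises and falls depended on how arrays were scaled: rises made up 47.4% of calls as deposited, 55.0% (1929 against 1577) when arrays were scaled to their poly-A spikes, and 81.1% (3108 against 723) when they were scaled to their hybridisation spikes. The median of all genes was then 0.08 and 0.49. Under both spike scalings 1854 genes were called higher and 723 lower.

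For most genes no difference from the sum of the single effects was called. The single comparisons share the control arrays with the combined one, so the sum was tested as a contrast of all 4 groups in 1 fit. Carnitine alone gave 25 rises (0.47%) and 55 falls (1.03%), and peroxide alone 1877 (35.3%) and 2103 (39.5%). The combined effect lay above the sum in 411 genes (7.72%) and below it in 272 (5.11%), 683 in all (12.8%), with 1708 at an unadjusted p below 0.05, and 4641 did not pass. Of the genes above the sum 266 had risen with both agents, 91 had fallen less than the sum, and 54 did not pass against control. Of those below the sum 146 had fallen, 77 had risen less than the sum, and 49 did not pass against control. The difference was at least 2-fold in 88 genes above and 56 below. Its median over all tested genes was 0.01, with quartiles of -0.19 and 0.22. For 3155 genes (59.3%) the 95% interval of the difference lay within 1.5-fold of the sum in either direction. Among the 1248 genes called with at least a 2-fold combined change, 420 (33.7%) met that bound.

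**Figure D1:**
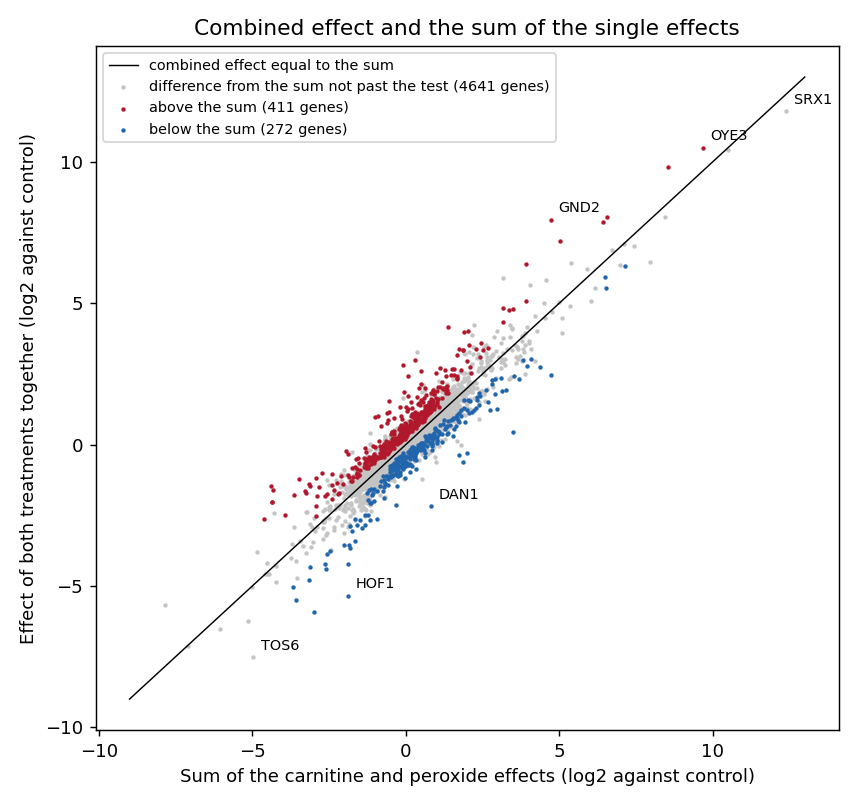
Effect of both treatments together against the sum of the single effects, each on the log2 scale against control, for the 5324 tested genes. Grey points are the 4641 genes whose difference from the sum did not pass the test, red points the 411 above the sum and blue points the 272 below it; the black line marks equality.

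The count of genes called off the sum changed greatly when single arrays were left out. Each such fit leaves 1 array in a group and fewer degrees of freedom. How far that alone changes the count was not tested. All 683 kept their sign in each of the 8 fits that left out 1 array, but the number called was 18 without control replicate 1, 178 without control replicate 2, 26 without carnitine replicate 1 and 17 without carnitine replicate 2. It was 969 without peroxide replicate 1, 169 without peroxide replicate 2, 22 without replicate 1 of the combined group and 208 without its replicate 2. Apart from the 9 genes described next, each gene named as above or below the sum lost its call without at least 1 array, and GSH1 and PHO89 were called in 0 of the 8 fits. The split also depended on scaling: genes above the sum were 60.2% of calls as deposited, 99.0% (3895 against 40) with poly-A spikes, which moved the median of all genes to 0.64, and 43.8% (155 against 199) with hybridisation spikes, which moved it to -0.10. The mean log2 signal of the 12 poly-A spike probe sets was 6.11 and 6.04 on the peroxide arrays and 5.33 to 5.60 on the other 6, so scaling to them lowered the peroxide arrays against the rest. The part that the spikes play in the counts was not tested beyond these values. Under both spike scalings 132 of the 411 and 35 of the 272 were called on the same side.

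In 9 genes the combined effect differed from the sum in every fit that left out an array and under both spike scalings. PNS1, SHC1 and SPS4 among them were singled out after their values were seen; the others also come from the rule for named genes. GND2 encodes the minor isoform of 6-phosphogluconate dehydrogenase, an NADPH-forming enzyme of the pentose phosphate pathway. It read 13.8 and 9.82 in the control, 10.5 and 13.6 with carnitine, 322 and 286 with peroxide and 3371 and 2486 with both. The difference from the sum was 3.21 on the log2 scale (SE 0.32, adjusted p = 0.00891). PGM2, for the main phosphoglucomutase, read 3099.9 and 3109 in the control, 2062 and 1823 with carnitine, 11076 and 8884 with peroxide and 17786 and 18173 with both, 1.54 above the sum (SE 0.15, adjusted p = 0.00891). In both genes the combined arrays were higher than every other array.

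ATO2, for a plasma membrane protein of the acetate and ammonium transporter family, read 69.8 and 96.2 in the control, 40.2 and 42.8 with carnitine, 178 and 159.8 with peroxide and 420.2 and 465 with both. Carnitine alone gave -0.98 and peroxide alone 1.04, which sum to 0.06, against a combined change of 2.43. PNS1, whose protein resembles choline transporter-like proteins of animals, read 4829 and 4528 in the control and 3296 and 3521 with carnitine. It read 5938 and 5649 with peroxide and 9201 and 9444 with both, 1.14 above the sum (SE 0.092). SHC1, for an activator of chitin synthase III, read 13.1 and 13.6 in the control, 7.62 and 7.60 with carnitine, 17.6 and 14.5 with peroxide and 31.5 and 28.6 with both. In these 3 genes the carnitine arrays were the lowest and the combined arrays the highest of all 8.

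HXT11, for a hexose transporter, lay between 11.4 and 13.5 on all 6 other arrays and read 50.6 and 40.2 with both, 1.91 above the sum (SE 0.19, adjusted p = 0.00891). CRC1, the mitochondrial carrier of acetylated carnitine, was at the floor in the control, with 4.07 and 3.88, and stayed there with carnitine. It read 4.72 and 4.21 with peroxide and 11.2 and 11.6 with both, at least 2.75-fold higher than in the control, and passed the test of the difference from the sum (adjusted p = 0.00891). HOF1, for an F-BAR protein of the bud neck needed in cytokinesis, read 994 and 1114 in the control, 1227 and 1198 with carnitine, 197 and 311 with peroxide and 21.5 and 31.5 with both, below the sum (difference -3.46, SE 0.35, adjusted p = 0.00891). SPS4, a sporulation gene, read 27.2 and 27.5 in the control, 66.1 and 70.9 with carnitine, 4.59 and 5.15 with peroxide and 4.38 and 4.15 with both. Its carnitine arrays were the highest and its combined arrays the lowest, the latter barely above the floor. With an offset of 50 on the signals, all 9 differences still passed the test, but those of the dim genes shrank, to 0.17 for CRC1, 0.41 for SHC1, 0.62 for HXT11 and -0.63 for SPS4.

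**Figure D2:**
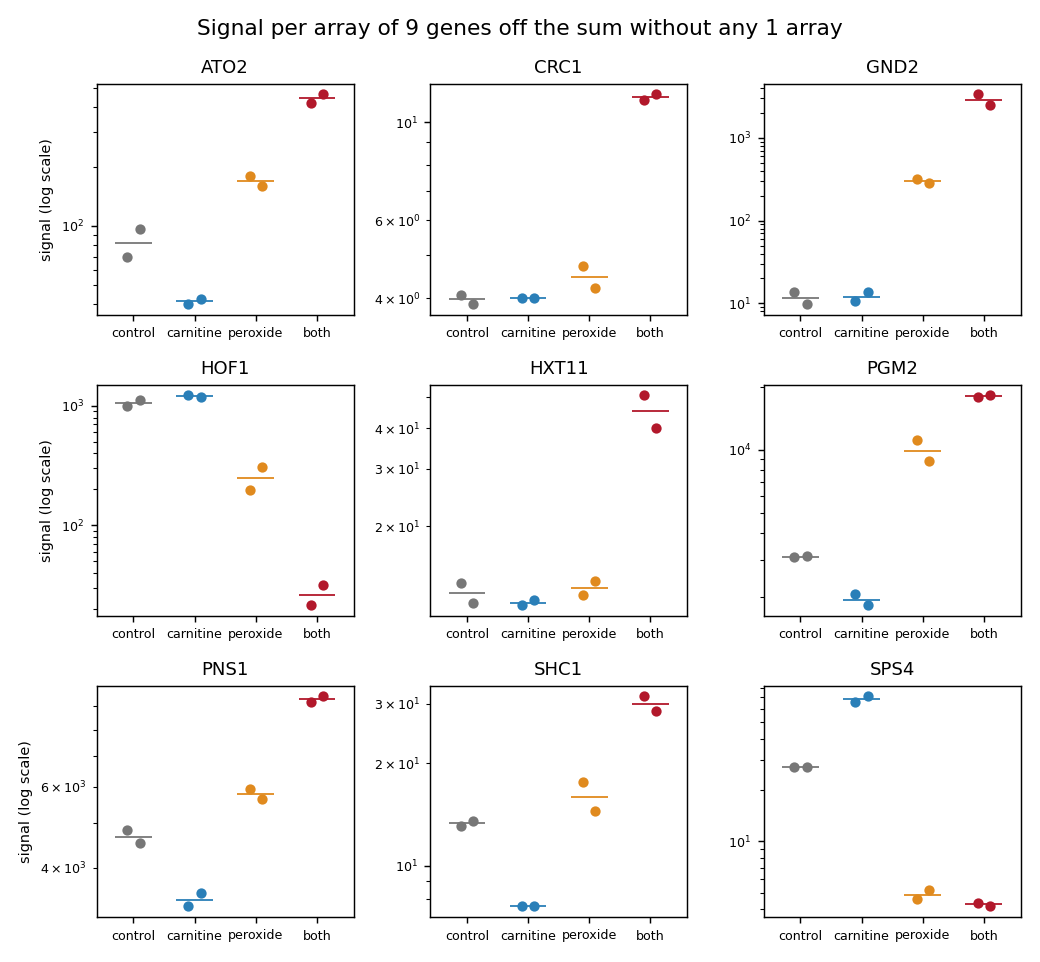
Signal per array, on log scales that differ between panels, of the 9 genes whose combined effect differed from the sum without any 1 array. Points are the 2 arrays of each group and short lines their geometric mean; the combined arrays lie outside the range of all other arrays in each panel, lowest for HOF1 and SPS4 and highest for the rest.

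SRX1, OYE3 and FRM2 had the 3 largest rises against control. SRX1 (YKL086W) encodes sulfiredoxin, which restores over-oxidised peroxiredoxins, and read 4.58 and 4.68 in the control and 16418 and 16587 with both (log2 change 11.80, SE 0.16, adjusted p = 1.19e-08). Its control values lay just above the floor of 4.14. OYE3 (YPL171C), for an NADPH oxidoreductase of the old yellow enzyme family, read 12.9 and 12.3 in the control and 18889 and 17778 with both. The change was 10.51 (SE 0.12, adjusted p = 1.19e-08). With peroxide alone it read 10815 and 9332, and the combined change was 0.81 above the sum (adjusted p = 0.0311). FRM2, a nitroreductase family gene, rose by 10.41 (SE 0.14), from 14.0 and 13.4 to 18160.1 and 18931. None of the control and combined values of these 3 genes overlapped.

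GTT2, for a glutathione transferase, read 193 and 239 in the control and 27709.9 and 27947 with both, a rise of 7.02 (SE 0.12). DAK2, for a dihydroxyacetone kinase, went from 4.25 and 4.23 to 977 and 1282. All 4 combined values were far above the control. YKL107W, of unknown role, did not exceed the floor in the control and read 629 and 429 with both, at least 125-fold higher. GTO3, a glutathione transferase gene of the omega class, likewise left the floor, to 431 and 444 with both, at least 105-fold higher. For these 4 genes a difference from the sum was not called. Their arrays with both agents lay within 1.5-fold of at least 1 peroxide array.

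JLP1, for a dioxygenase that releases sulfite from sulfonates, read 5.26 and 5.27 in the control, 543 and 362 with peroxide and 1289.7 and 1176 with both, 1.46 above the sum (SE 0.26, adjusted p = 0.0234). YDL218W, of unknown role, read 6.18 and 4.94 in the control, 2439 and 1968 with peroxide and 5545 and 4380.0 with both. LSO1 read 5.56 and 6.03 in the control, 741 and 412 with peroxide and 1709 and 1355 with both. SPS100, named for its role in the spore wall, read 4.16 and 4.14 in the control, 202 and 91.4 with peroxide and 735 and 512 with both. In all 4 the combined arrays were higher than both peroxide arrays, and the differences from the sum were 1.46 for JLP1, 1.26 for YDL218W, 1.48 for LSO1 and 2.18 for SPS100. The SPS100 control values lay at or next to the floor, so the size of its rise rests on the floor.

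**Figure D3:**
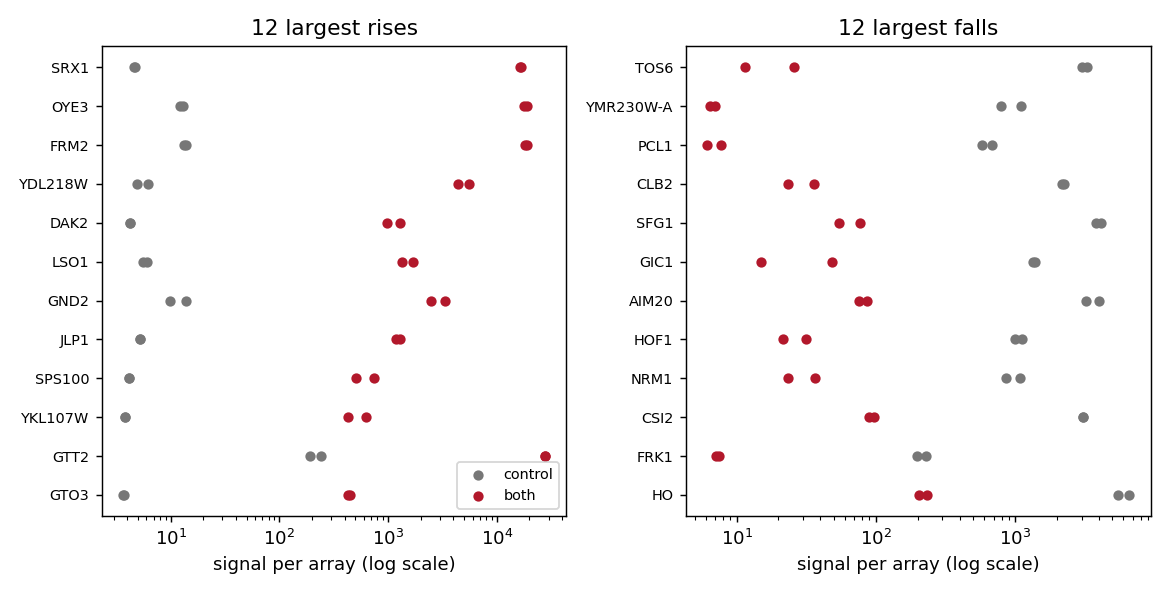
Signal per array, on log scales, of the 12 genes with the largest called rises and the 12 with the largest called falls against control. Grey points are the 2 control arrays and red points the 2 arrays with both agents; the groups do not overlap in any of the 24 genes.

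Antioxidant defence genes mostly rose. Of 22 tested Yap1-linked oxidoreductase and efflux genes 20 rose, 0 fell and 2 did not pass (median 1.91) beside -0.03 for all genes. Of 37 peroxide and thiol antioxidant genes 33 rose, 2 fell and 2 did not pass (median 1.07). Peroxide alone gave medians of 2.03 for the Yap1-linked list and 1.02 for the antioxidant list. Among all genes 35.1% rose and 38.9% fell. YAP1 itself read 4637 and 4166 in the control and 19985 and 18469.6 with both, a rise of 2.13 (SE 0.093, adjusted p = 1.32e-06). TSA2, for an inducible peroxiredoxin, read 559 and 731 in the control, 1299 and 1195 with carnitine, 49475 and 42515 with peroxide and 49793 and 53226 with both. TSA2 therefore rose with carnitine alone as well as with peroxide, and its combined rise of 6.33 (SE 0.13) was 0.80 short of the sum (difference -0.80, adjusted p = 0.0371). The combined arrays were no lower than those with peroxide alone.

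Other enzymes of peroxide and superoxide removal also rose. TSA1, the main cytosolic peroxiredoxin gene, read 49616 and 49702 in the control and 63965 and 63052 with both, a rise of 0.35 (SE 0.038). TRX2, for cytosolic thioredoxin, rose by 0.55 (SE 0.036), TRR1, for thioredoxin reductase, by 1.07 (SE 0.060), and GLR1, for glutathione reductase, by 1.31 (SE 0.052). The superoxide dismutase gene SOD1 rose by 0.46 (SE 0.040) and its mitochondrial counterpart SOD2 by 2.67 (SE 0.050). For none of these 6 was a difference from the sum called. Whether signals near the top of the range saturate was not tested.

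The catalase arrays read lower with both agents than with peroxide alone, a comparison for which no test was run. CTA1, the peroxisomal catalase gene, read 26.6 and 54.1 in the control, 60.0 and 49.8 with carnitine, 6105 and 7056 with peroxide and 2994 and 3677 with both. CTT1, the cytosolic catalase gene, read 755 and 334 in the control, 492 and 623 with carnitine, 13535 and 17568 with peroxide and 7520.1 and 8164 with both. Both rose against control, CTA1 by 6.45 (SE 0.31) and CTT1 by 3.96 (SE 0.34). The combined arrays lay below the peroxide arrays without overlap, but the differences from the sum, -1.51 for CTA1 (95% interval -2.52 to -0.50, adjusted p = 0.0597) and -1.12 for CTT1 (95% interval -2.24 to 0.01, adjusted p = 0.158), did not pass.

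Of the 37 antioxidant genes 3 lay above and 2 below the sum, near the shares over all genes (7.72% above and 5.11% below), and of the 22 Yap1-linked genes 3 lay above and 3 below. GPX1, for a glutathione peroxidase, read 918 and 1003 in the control, 688 and 527 with carnitine, 2412 and 2459 with peroxide and 3325 and 3223 with both, 1.10 above the sum (SE 0.19, adjusted p = 0.0214). GTT1, for a second glutathione transferase, read 5798 and 6093 in the control, 9762 and 7834 with peroxide and 15713 and 15095 with both, 0.75 above it (SE 0.14, adjusted p = 0.0244). ATR1, for a drug efflux pump, read 5834 and 5021 in the control, 14104 and 13739 with peroxide and 9925 and 10819.6 with both, with a difference of -0.59 (SE 0.11, adjusted p = 0.0253). GSH1, for the first enzyme of glutathione synthesis, rose by 1.58 (SE 0.050), with a difference of -0.31 from the sum (adjusted p = 0.0339). With arrays scaled to poly-A spikes the differences of ATR1 and GSH1 were turned to positive values.

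The pentose phosphate and NADPH list of 19 genes held 11 rises and 6 falls, with a median of 0.64, and 2 genes were not called. Among all genes 35.1% rose and 38.9% fell. Of the 19, 5 lay above the sum and 0 below, beside 7.72% and 5.11% of all genes. ZWF1, for glucose 6-phosphate dehydrogenase at the entry of the pathway, read 10356 and 10772 in the control and 31915 and 36056 with both, a rise of 1.68 (SE 0.094), with no difference from the sum called. TKL2, for the minor transketolase, read 35.8 and 19.2 in the control, 18.5 and 31.9 with carnitine, 466 and 398 with peroxide and 1995 and 2442 with both, 2.47 above the sum (SE 0.48, adjusted p = 0.0265). SOL4, for a 6-phosphogluconolactonase, read 505 and 369 in the control, 208 and 191 with carnitine, 9252 and 7551 with peroxide and 11959 and 12581 with both, 1.67 above the sum (SE 0.23, adjusted p = 0.0187). In TKL2, SOL4 and GND2 the combined arrays were the highest of the 8. Each was named by a rule on the difference from the sum, so this largely restates that choice. Without single arrays the list held 1 to 6 genes above the sum.

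In each of the stress lists more genes rose than fell, beside 35.1% that rose and 38.9% that fell among all genes. Above and below the sum lay 7.72% and 5.11% of all genes. Of 37 general stress genes 35 rose, 0 fell and 2 did not pass (median 2.25), and 11 lay above and 1 below the sum. Of 30 chaperone genes 28 rose and 2 fell, with a median of 1.19, and of 42 proteasome genes 40 rose, 1 fell and 1 did not pass (median 0.84). Of 30 autophagy genes 25 rose and 2 fell (median 1.06), and of 26 DNA damage genes 18 rose and 5 fell (median 0.87). Peroxide alone gave medians of 1.99 for general stress, 1.13 for chaperone, 0.63 for proteasome, 0.96 for autophagy and 0.48 for DNA damage genes. SSA4, for a stress-induced Hsp70 chaperone, read 1891 and 1788 in the control and 30196 and 29828 with both, a rise of 4.03 (SE 0.059, adjusted p = 1.2e-08). RNR3, for a ribonucleotide reductase subunit induced by DNA damage, rose by 4.10 (SE 0.22), from 121 and 163 to 2329.8 and 2507. ATG34, a receptor gene of selective autophagy, rose by 3.06 (SE 0.14).

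Some genes of these lists lay above the sum, and the ones described here were picked by that test. PUP1, for a catalytic subunit of the proteasome core, read 8787 and 9691 in the control, 12370.1 and 11738 with peroxide and 17424 and 17128 with both, 0.57 above the sum (SE 0.088, adjusted p = 0.0197). RPN10, for a ubiquitin receptor of the regulatory particle, read 10483 and 10378 in the control, 14867 and 13599.6 with peroxide and 18770.3 and 18752 with both, 0.41 above it (SE 0.077, adjusted p = 0.0244). RAD52, for the recombination protein, read 2290.4 and 2149 in the control, 3057 and 2758 with peroxide and 4642 and 4299 with both, 0.62 above it (SE 0.13, adjusted p = 0.0285). GRE3, for an aldose reductase, lay 0.76 above the sum (SE 0.089, adjusted p = 0.0149). In each of the 4 the combined arrays were higher than both peroxide arrays. FES1, for the nucleotide exchange factor of cytosolic Hsp70, went the other way: 31052 and 32331 with peroxide against 19946 and 20965 with both, a difference of -0.62 from the sum (SE 0.10, adjusted p = 0.0207), which turned positive with poly-A scaling.

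Of the proteasome list 12 genes lay above the sum and 0 below, beside 7.72% and 5.11% of all genes. The median difference was 0.27 beside 0.01 for all genes. The count above was 0 without control replicate 1, 3 without control replicate 2, 0 without either carnitine array, 21 without peroxide replicate 1, 1 without peroxide replicate 2, 0 without replicate 1 and 1 without replicate 2 of the combined group, while the median stayed between 0.20 and 0.32. The general stress count of 11 ranged from 0 without control replicate 1 to 13 without control replicate 2.

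Storage carbohydrate genes mostly rose. Of 20 trehalose and glycogen genes 15 rose, 3 fell and 2 did not pass, beside 35.1% and 38.9% of all genes. The median was 1.44 beside a median sum of 0.83. Above the sum lay 11 and below it 0, beside 7.72% and 5.11% of all genes. TSL1, for a regulatory subunit of trehalose synthase, read 3875 and 2777 in the control, 2585 and 2129 with carnitine, 19214 and 17794 with peroxide and 25604 and 25601 with both, 0.95 above the sum (SE 0.22, adjusted p = 0.0356). GSY1, for the minor glycogen synthase, fell: 6536 and 4737 in the control, 3489.9 and 2944 with carnitine, 475 and 326 with peroxide and 989.9 and 797 with both. Its combined value lay between control and peroxide, 1.97 above the sum (SE 0.32, adjusted p = 0.0203). GIP2, for a glycogen-linked regulator of the phosphatase Glc7, read 16.4 and 7.91 in the control, 5.30 and 9.54 with carnitine, 17.7 and 16.3 with peroxide and 79.5 and 82.9 with both (difference 2.94, SE 0.51, adjusted p = 0.0228). NTH1, for the neutral trehalase, which degrades trehalose, rose by 2.26 (SE 0.060) with no difference from the sum called. The 11 above the sum became 2 without control replicate 1, 1 without either carnitine array, 2 without peroxide replicate 2, 1 without replicate 1 and 3 without replicate 2 of the combined group, and the control duplicates of the list differed by a median of -0.37 between replicates 2 and 1.

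The iron list of 32 tested genes held iron uptake genes along with AFT1, AFT2 and CCC1, so it is not a set of Aft1 targets only. Of these 26 rose, 2 fell and 4 did not pass (median 1.37), beside 35.1% and 38.9% of all genes. Above the sum lay 14 and below it 2, beside 7.72% and 5.11% of all genes. FRE1, for a surface ferric reductase, read 886 and 827 in the control, 448 and 399 with carnitine, 28659.8 and 24529 with peroxide and 29416 and 28856 with both, a rise of 5.09 (SE 0.095) that was 1.15 above the sum (SE 0.13, adjusted p = 0.0149). TIS11, for a protein that speeds decay of transcripts of iron-using proteins, read 719 and 564 in the control, 310.1 and 337 with carnitine, 14925 and 13458 with peroxide and 18607 and 16824 with both. FIT3, for a mannoprotein that retains siderophores in the wall, read 847 and 698 in the control, 641 and 591 with carnitine, 8665 and 8652 with peroxide and 14673 and 16496 with both. All 3 were lowest with carnitine alone and highest with both. ENB1, for the enterobactin transporter, read 4227 and 3191 in the control, 1174 and 1323 with carnitine, 8774 and 6142 with peroxide and 11881 and 9557 with both, 2.10 above the sum (SE 0.28, adjusted p = 0.0187). FET3, for the ferroxidase of iron uptake, read 23958 and 24507 in the control, 17112 and 17157 with carnitine, 28440.5 and 24685 with peroxide and 35634 and 32831 with both.

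In FRE1, TIS11, FIT3, ENB1 and FET3 the arrays with carnitine alone lay below the control, and the arrays with both agents lay above those with peroxide alone. Each of these genes was called above the sum, and such values are part of what that test measures. The shared pattern is thus not a separate result, and 2 genes of the list lay below the sum. The list's median was -0.22 with carnitine alone, 1.35 with peroxide alone and 1.37 with both, and its median difference from the sum was 0.61. The 14 above the sum became 0 without control replicate 1, 8 without control replicate 2, 1 without carnitine replicate 1, 0 without carnitine replicate 2, 7 without peroxide replicate 2, 0 without replicate 1 and 7 without replicate 2 of the combined group, while the median difference stayed between 0.39 and 0.82.

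Of 21 genes of the phosphate regulon 11 fell, 2 rose and 8 were not called (median -0.29, and 0.23 with hybridisation spikes). Among all genes 38.9% fell and 35.1% rose. PHO84, for the high-affinity phosphate transporter, read 4171 and 4905 in the control, 1081 and 1492 with carnitine, 3674 and 3080.0 with peroxide and 1102 and 979 with both, a fall (log2 change -2.12, SE 0.17, adjusted p = 1.88e-05). SPL2, for an inhibitor of low-affinity phosphate uptake, read 349 and 503 in the control, 74.1 and 78.6 with carnitine, 116 and 79.9 with peroxide and 19.4 and 16.3 with both. In SPL2 the single effects were -2.46 and -2.12 and the combined change -4.56, with a difference of 0.02 from the sum. Its 95% interval of -0.74 to 0.78 was too wide to lie within 1.5-fold of the sum. PHO89, for the sodium-dependent phosphate transporter, read 144 and 297 in the control, 50.3 and 29.0 with carnitine, 53.2 and 56.3 with peroxide and 61.1 and 42.0 with both. It was called 2.33 above the sum (SE 0.54, adjusted p = 0.0365), a call lost when any 1 array was left out. The combined arrays of PHO89 overlapped those with carnitine and those with peroxide.

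ZRT1, for the high-affinity zinc transporter, read 2262 and 2401 in the control, 4765 and 5178 with carnitine, 534 and 513 with peroxide and 756 and 928 with both. ZRT1 thus rose with carnitine alone and fell with both, by -1.48 (SE 0.12, adjusted p = 1.67e-05). Of 16 genes of the zinc regulon 7 fell, 5 rose and 4 were not called, near the shares over all genes (38.9% fell and 35.1% rose). The zinc median was -0.12, which became 0.40 with hybridisation spikes.

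TOS6 had the largest fall, and cyclin, bud-emergence and mating-type switching genes were among the 12 largest. TOS6, for a wall protein, read 3291 and 3043 in the control, 3944 and 2426 with carnitine, 67.1 and 161 with peroxide and 26.0 and 11.4 with both (log2 change -7.52, SE 0.49, adjusted p = 7.23e-06). PCL1, a G1 cyclin gene, read 582 and 686 in the control and 7.69 and 6.16 with both. CLB2, for the main mitotic cyclin, read 2238 and 2183 in the control, 31.4 and 103 with peroxide and 36.2 and 23.4 with both (log2 change -6.25, SE 0.48). The control and combined arrays were far apart in all 3. GIC1, for an effector of Cdc42 in bud emergence, read 1394 and 1336 in the control, 6.56 and 5.31 with peroxide and 48.6 and 15.0 with both. NRM1, whose product represses late G1 transcription, fell (log2 change -5.04, SE 0.23), from 857 and 1086 to 36.6 and 23.6. HO, the mating-type switching endonuclease gene, read 5479 and 6621 in the control, 8638 and 8044 with carnitine, 375 and 652 with peroxide and 234 and 206 with both (difference -1.64 from the sum, SE 0.34, adjusted p = 0.0292).

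Of 25 G2/M genes, 24 fell, 0 rose and 1 did not pass, beside 38.9% that fell and 35.1% that rose among all genes. The median was -2.57 beside a median sum of -1.87. Below the sum lay 9 and above it 0, beside 5.11% and 7.72% of all genes. SWI5, for a transcription factor of the M/G1 transition, read 897 and 903 in the control, 966 and 1063 with carnitine, 150.2 and 309 with peroxide and 43.9 and 52.2 with both (difference -2.34, SE 0.42, adjusted p = 0.0236). CHS2, for the chitin synthase of the primary septum, read 2045 and 2282 in the control, 278 and 518 with peroxide and 95.7 and 109.8 with both (difference -1.81, SE 0.38, adjusted p = 0.0298). BUD4, for a bud-neck landmark protein, read 1827 and 1777 in the control, 502 and 824 with peroxide and 171 and 172 with both (difference -1.73, SE 0.29, adjusted p = 0.0214). In all 3 the combined arrays were lower than both peroxide arrays, and peroxide replicate 2 was higher than replicate 1. Each was named by a rule on the difference from the sum, so the low combined arrays largely restate that choice. SFG1, for a transcription factor of filamentous growth, fell from 4117 and 3826 to 77.5 and 54.8, against 296 and 692 with peroxide (difference -2.95, SE 0.50, adjusted p = 0.0215).

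In bulk RNA, fewer cells in mitosis and less of these transcripts per cell cannot be told apart. The peroxide duplicates differed in this list. The median over the 25 genes, against the control mean, was -2.10 on peroxide array 1 and -1.60 on peroxide array 2, beside -2.26 and -2.72 on the combined arrays. The median difference between the peroxide duplicates was 0.52, with 24 of 25 genes higher in replicate 2. The 9 genes below the sum became 18 without peroxide replicate 1, 4 without peroxide replicate 2 and 1 without any 1 of the other 6 arrays. The median difference from the sum of -0.69 became -0.96 without peroxide replicate 1 and -0.38 without peroxide replicate 2. It was -0.79 with hybridisation spikes and -0.06 with poly-A spikes. The part that the unequal peroxide duplicates play was not tested beyond these values.

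**Figure D4:**
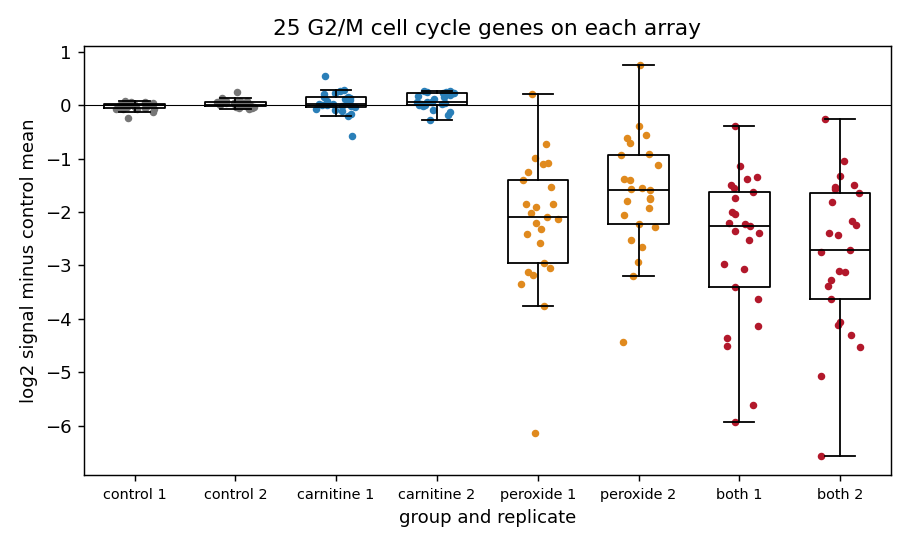
Log2 signal minus the control mean for the 25 tested G2/M genes on each of the 8 arrays. Points are genes, and boxes give the median, the quartiles and whiskers to the last point within 1.5 interquartile ranges; the medians were -2.10 and -1.60 on the peroxide arrays and -2.26 and -2.72 on the combined arrays.

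Of 38 G1/S genes 6 rose, 23 fell and 9 did not pass (median -0.54), beside 35.1% and 38.9% of all genes that rose and fell. Of 18 genes of daughter separation and early G1 1 rose, 13 fell and 4 did not pass (median -0.54). PCL2, a G1 cyclin gene, read 465 and 527 in the control, 579 and 675 with carnitine, 1039.5 and 1657 with peroxide and 357 and 422 with both. It did not pass against control (log2 change -0.35, SE 0.22, adjusted p = 0.184), and its difference from the sum was -2.09 (SE 0.31, adjusted p = 0.0196). Peroxide arrays of PCL2 were the highest and combined arrays the lowest. It is 1 of 99 genes that were called with peroxide alone, were not called with both and lay off the sum. All 9 histone genes fell, with a median of -0.83. HTB2, for histone H2B, read 30195 and 28842 in the control, 12040.3 and 17042 with peroxide and 6535 and 8274 with both (difference -0.96 from the sum, SE 0.23, adjusted p = 0.0392).

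Transcripts of ribosome synthesis genes mostly fell. Of 114 ribosome biogenesis genes 109 fell, 1 rose and 4 did not pass (median -0.90), with a median difference from the sum of -0.01. Among all genes 38.9% fell and 35.1% rose. Of 33 RNA polymerase I and III genes 25 fell, 1 rose and 7 did not pass (median -0.89). Peroxide alone gave medians of -1.02 for ribosome biogenesis and -0.95 for the polymerase genes. DBP3, for an RNA helicase of ribosome assembly, read 20919 and 21249 in the control, 23343 and 24182 with carnitine, 7349 and 7557 with peroxide and 8721 and 8964 with both (log2 change -1.25, SE 0.045, adjusted p = 5.97e-07). In DBP3 carnitine alone gave a slightly higher signal, and the combined arrays were slightly higher than the peroxide arrays. KRR1, for a small-subunit processing factor, read 10166 and 9882 in the control, 5764 and 5712 with peroxide and 4651 and 4577 with both (difference -0.46, SE 0.082, adjusted p = 0.0234), a difference that turned positive with poly-A spikes.

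Of 126 cytosolic ribosomal protein genes 119 fell, 1 rose and 6 did not pass, beside 38.9% that fell and 35.1% that rose among all genes. Their median of -0.52 became 0.01 with hybridisation spikes and -0.41 with poly-A spikes. Of these genes 18 lay below the sum and 1 above, beside 5.11% and 7.72% of all genes. RPS26B, for a small-subunit protein, read 56239.9 and 53497 in the control, 39931 and 43150.2 with peroxide and 24079.8 and 28004 with both (log2 change -1.08, SE 0.077). Its difference from the sum was -0.67 (SE 0.11, adjusted p = 0.0205). The combined arrays of RPS26B were the lowest of the 8. The 18 below the sum became 38 without peroxide replicate 1, 4 without replicate 2 of the combined group and 0 without any 1 of the other 6 arrays. Many of these genes have near-identical copies, which cannot be told apart where they share probes.

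Of 30 sterol synthesis genes 21 fell, 3 rose and 6 did not pass (median -0.50, and 0.02 with hybridisation spikes). ERG1, for squalene epoxidase, read 25307 and 24114 in the control, 27596 and 29033 with carnitine, 7707 and 8558 with peroxide and 10836 and 10568 with both (log2 change -1.21, SE 0.062). Of 28 genes of sulfate assimilation and methionine synthesis 12 rose, 9 fell and 7 did not pass, beside 35.1% and 38.9% of all genes. Below the sum lay 8 and above it 0, beside 5.11% and 7.72% of all genes. MET16, for PAPS reductase, read 13899 and 12711 in the control, 24035 and 22928 with peroxide and 13305 and 14562 with both. The combined arrays overlapped the control (log2 change 0.07, SE 0.066, adjusted p = 0.389), and the difference from the sum was -0.76 (SE 0.093, adjusted p = 0.0161). MET5, for the sulfite reductase beta subunit, read 23685 and 23636 in the control, 17133 and 18282 with peroxide and 10701 and 11929 with both (difference -0.64, SE 0.088, adjusted p = 0.0187).

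Of 10 arginine synthesis genes 6 fell, 1 rose and 3 did not pass, beside 38.9% that fell and 35.1% that rose among all genes. The median was -0.52 beside a median sum of -0.08. Below the sum lay 4 and above it 0, beside 5.11% and 7.72% of all genes. The arginine median became 0.00 with hybridisation spikes. ARG1, for argininosuccinate synthase, read 45291 and 47872 in the control, 44286 and 46892 with carnitine, 36536 and 41674 with peroxide and 20791 and 23105 with both (log2 change -1.09, SE 0.078), with a difference of -0.80 from the sum (SE 0.11, adjusted p = 0.0187). The 6 other ARG1 arrays were all above the combined ones. The sulfate and methionine count of 8 below the sum ranged from 0 without either carnitine array or replicate 1 of the combined group to 9 without peroxide replicate 1. The arginine count of 4 ranged from 0 without control replicate 1, either carnitine array or replicate 1 of the combined group to 5 without peroxide replicate 1.

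Of 21 amino acid permease genes 6 rose, 4 fell and 11 did not pass, beside 35.1% that rose and 38.9% that fell among all genes. The median was -0.04, and 0.48 with hybridisation spikes. Above the sum lay 5 and below it 0, beside 7.72% and 5.11% of all genes. GAP1, for the general amino acid permease, read 10365 and 10478 in the control, 14198 and 13429 with carnitine, 4476 and 4401 with peroxide and 8740.2 and 8123 with both. Its combined arrays lay below the control and above the peroxide arrays (log2 change -0.31, SE 0.057, difference from the sum 0.52, SE 0.081, adjusted p = 0.0197). The fall against control turned to a rise with hybridisation spikes.

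Among all genes 35.1% rose, 38.9% fell and 5.11% lay below the sum. Of 26 genes of the pheromone response and alpha identity 3 rose, 9 fell and 14 did not pass. Their median was -0.20, and 0.32 with hybridisation spikes, and 1 gene lay below the sum. That gene, SAG1, for the alpha-agglutinin of mating, read 24877 and 25098 in the control, 21303 and 22371 with carnitine, 14449 and 17545 with peroxide and 9141 and 9061 with both (log2 change -1.46, SE 0.084, difference from the sum -0.61, SE 0.12, adjusted p = 0.0265). The SAG1 arrays fell in the order control, carnitine, peroxide and both without overlap. The peroxide duplicates differed here too, by a median of 0.32 with 24 of 26 genes higher in replicate 2, and the count below the sum was 11 without peroxide replicate 1, 2 without peroxide replicate 2 and 0 without any 1 of the other 6 arrays. With poly-A spikes the SAG1 difference turned positive.

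Among 20 wall mannoprotein genes, those of the TIR and DAN families included, 6 rose, 7 fell and 7 did not pass, near the shares over all genes (35.1% and 38.9%), and 7 lay below the sum, beside 5.11% of all genes, and 0 above. DAN1 read 851 and 1272 in the control, 3961 and 3525 with carnitine, 376 and 708 with peroxide and 166 and 321 with both (log2 change -2.17, SE 0.39, difference from the sum -3.01, SE 0.55, adjusted p = 0.0236). TIR1 read 3239 and 3472 in the control, 3137 and 3127 with carnitine, 2628 and 3172 with peroxide and 561 and 1058 with both. Its single effects, -0.10 and -0.22, did not pass, while the combined fall did (log2 change -2.12, SE 0.26, adjusted p = 0.00016). TIR2 read 763 and 785 in the control, 2062 and 2263 with carnitine, 1237 and 1338 with peroxide and 1685 and 1953 with both, a rise of 1.23 (SE 0.11). The proteins of DAN1, TIR1 and TIR2 are known as ones made in the cold or without oxygen. The 7 below the sum became 0 without control replicate 1 or either carnitine array, 3 without control replicate 2, 2 without peroxide replicate 2 and 1 without replicate 1 of the combined group.

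Of 11 tested hexose transporter genes 3 rose, 6 fell and 2 did not pass, beside 35.1% that rose and 38.9% that fell among all genes. The median was -0.19, and 0.33 with hybridisation spikes. Above the sum lay 8 and below it 0, beside 7.72% and 5.11% of all genes. HXT2, for a high-affinity transporter, read 27089 and 25999 in the control, 27490.3 and 25987 with carnitine, 8477 and 7091 with peroxide and 15351 and 14416 with both. Its fall of -0.84 (SE 0.085) was 0.93 above the sum (SE 0.12, adjusted p = 0.0184). MAL11, for a maltose transporter, read 294 and 182 in the control, 25.4 and 14.7 with peroxide and 86.0 and 66.1 with both. MAL31, for a second maltose transporter, read 1683 and 1435 in the control, 274 and 154 with peroxide and 694 and 644 with both, 2.25 above the sum (SE 0.34, adjusted p = 0.0197). MAL11 lay 2.70 above the sum (SE 0.44, adjusted p = 0.0207). For HXT2, MAL11 and MAL31, each named by a rule on the difference from the sum, the combined arrays lay between the control and the peroxide arrays. The 8 hexose transporter genes above the sum became 1 without control replicate 1, either carnitine array or replicate 1 of the combined group, 3 without control replicate 2, 4 without peroxide replicate 2 and 2 without replicate 2 of the combined group.

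Of 40 genes of the respiratory chain and ATP synthase 14 rose, 12 fell and 14 did not pass, beside 35.1% and 38.9% of all genes, and 0 lay off the sum in either direction. CYC1, for the main cytochrome c, read 3362 and 3861 in the control and 19716 and 19873 with both, a rise of 2.46 (SE 0.071). Of 21 genes of the tricarboxylic acid cycle 11 rose, 5 fell and 5 did not pass. CIT1, for mitochondrial citrate synthase, rose by 1.35 (SE 0.043), from 16110.1 and 15609 to 39489 and 41159. ACO1, for aconitase, read 25825 and 25590.5 in the control, 25865 and 30976 with peroxide and 14344 and 17391 with both, a fall (log2 change -0.70, SE 0.11) with a difference of -0.76 from the sum (SE 0.15, adjusted p = 0.0276). Aconitase carries an iron-sulfur cluster. Of 26 glyoxylate cycle and beta-oxidation genes 15 rose, 6 fell and 5 did not pass.

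**Figure D5:**
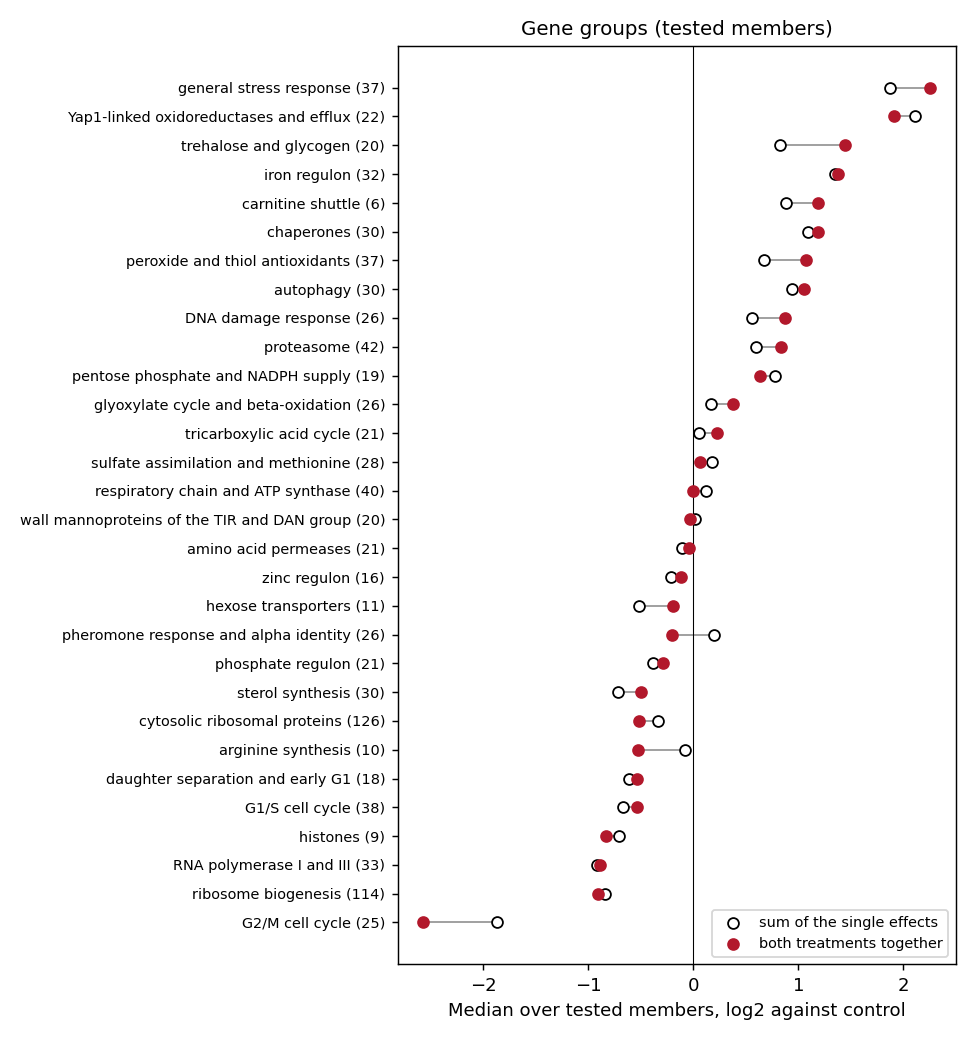
Median log2 change against control over the tested members of each gene group (number of tested members in parentheses), for both treatments together (red) and for the sum of the single effects (open circles). General stress genes had a combined median of 2.25 and G2/M genes of -2.57; with arrays scaled to hybridisation spikes the phosphate, sterol, hexose transporter, zinc, amino acid permease, pheromone, respiratory, wall mannoprotein and cytosolic ribosomal protein medians turned from negative to positive.

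Of the 6 genes of carnitine uptake and shuttling 4 rose, 1 fell and 1 did not pass, beside 35.1% that rose and 38.9% that fell among all genes. AGP2, the plasma membrane carnitine transporter gene, read 455 and 272 in the control, 279 and 248 with carnitine, 1527 and 1518 with peroxide and 1616 and 948 with both, a rise of 1.81 (SE 0.30, adjusted p = 0.000808). CAT2, for the carnitine acetyltransferase of mitochondria and peroxisomes, read 257 and 282 in the control, 154 and 199 with carnitine, 1313 and 1189 with peroxide and 1050.4 and 997 with both, a rise of 1.93 (SE 0.14, adjusted p = 1.35e-05). For both the difference from the sum was not called, with 95% intervals of -0.85 to 1.10 for AGP2 and -0.14 to 0.81 for CAT2. YAT2, for a cytosolic carnitine acetyltransferase, read 783 and 736 in the control, 645 and 792 with carnitine, 2557 and 2639.9 with peroxide and 1412 and 1347 with both. It rose by 0.86 (SE 0.12), with a difference of -0.83 from the sum (SE 0.17, adjusted p = 0.0276). The YAT2 combined arrays lay between the control and the peroxide arrays. YAT1, for the outer mitochondrial enzyme, read 4.73 to 5.57 on all 8 arrays and did not pass. HNM1, for the choline transporter, fell (log2 change -2.15, SE 0.13), from 21318 and 22185 to 5378 and 4462. CRC1 also rose, to the values given above.

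Against control 529 genes were called with both agents and with neither agent alone, and 112 of these also lay off the sum. YOL131W, of unknown role, lay between 4.39 and 6.06 on the 6 other arrays and read 49.7 and 27.3 with both (difference 2.70, SE 0.35, adjusted p = 0.0184). PUT4, for the proline permease, lay between 5.40 and 10.1 on the 6 other arrays and read 47.8 and 31.4 with both (difference 2.09, SE 0.39, adjusted p = 0.0245). ALP1, for an arginine permease, was at the floor on the 6 other arrays and read 15.3 and 11.1 with both, at least 3.14-fold higher than in the control (adjusted p = 0.0159 for the difference from the sum). CYM1, for a mitochondrial protease that degrades presequences, read 704 and 751 in the control, 808 and 832 with carnitine, 1140.4 and 796 with peroxide and 2199 and 1982 with both (difference 0.96, SE 0.23, adjusted p = 0.0406). All 4 were picked from those 112 by the size of the combined change. That their combined arrays were above every other array largely restates that choice. DDI3, for cyanamide hydratase, read 25.8 and 19.4 in the control and 87.5 and 60.5 with both, on probes shared with another gene.

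Further genes with large differences from the sum had roles outside the lists or none known. YAL037C-A read 4.44 and 4.45 in the control, 27.5 and 85.9 with peroxide and 6.36 and 5.90 with both. YGR126W was at the floor in the control and with carnitine, read 123 and 88.0 with peroxide and 33.3 and 14.0 with both. HMS1, for a transcription factor of filamentous growth, read 29.2 and 25.3 in the control, 120.0 and 75.4 with carnitine, 20.8 and 46.9 with peroxide and 26.9 and 18.6 with both. The rise of YAL037C-A with peroxide was called, and neither the change of HMS1 with carnitine (adjusted p = 0.0835) nor the combined change of YAL037C-A or HMS1 (adjusted p = 0.364 and adjusted p = 0.538) passed against control. YJR115W, of unknown role, read 1681 and 1125 in the control, 770.1 and 1139 with carnitine, 174 and 52.6 with peroxide and 455 and 559.9 with both. MRK1, for a kinase of the glycogen synthase kinase family, read 229 and 172 in the control, 18.1 and 10.2 with peroxide and 56.3 and 43.0 with both. For YJR115W and MRK1 the combined arrays lay between control and peroxide, 2.96 and 2.35 above the sum. The call of YJR115W against control (adjusted p = 0.033) was lost without either control array or either combined array.

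Among genes with a combined change of at least 2 log2 units, GPX2, ELO2, SOD2, NTH1 and FMP23 were among the 8 with the narrowest intervals of the difference that lay within 1.5-fold of the sum. GPX2, for a glutathione peroxidase, read 11478 and 11292 in the control, 52045 and 51226 with peroxide and 52378 and 50119 with both, and its difference from the sum was 0.11 (95% interval -0.05 to 0.27). SOD2 had 0.14 (95% interval -0.02 to 0.31), NTH1 had 0.19 (95% interval -0.01 to 0.39) and FMP23, for a mitochondrial protein linked to iron and copper balance, 0.06 (95% interval -0.14 to 0.26). For these 4 the combined change equalled the sum to within 1.5-fold. ELO2, for a fatty acid elongase, read 16729.7 and 16850.4 in the control, 2253 and 2291 with peroxide and 2929.6 and 2981 with both. Its difference of 0.41 (SE 0.070, 95% interval 0.25 to 0.57) passed the test (adjusted p = 0.0215) and lay within 1.5-fold all the same.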

How the data were processed

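Total RNA of 8 yeast cultures in 4 groups of 2, by the sample titles, was measured on Affymetrix yeast arrays. The deposited values are linear intensity, 1 signal per probe set and array. Per the submitters' processing notes GCOS was the software (no version), and how probes were summarised, corrected for background and scaled is not stated in the labels. The file held 10928 probe sets, and 0 of its value columns went unused. Of these probe sets 5498 carried exactly 1 S. cerevisiae gene by the platform annotation, 1746 belonged to fission yeast, 1 matched several genes and 3683 had no gene listed. The 5498 covered 5449 genes, 12 symbols were updated through a RefSeq table, and the probe set with the highest mean log2 signal stood for its gene. The floor was the 95th percentile of mean log2 signal over fission yeast probe sets (2.05 on the log2 scale). Below it lay 125 genes, and 5324 were tested, of which 109 share probes with another gene.

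limma 3.58.1 under R 4.3.3 was run on log2 of the deposited signals, with 4 group means in lmFit and a trended eBayes. The fit had 4 residual degrees of freedom and 3.44 prior ones. The sum was tested as combined minus carnitine minus peroxide plus control. Adjusted p-values are Benjamini-Hochberg over the 5324 genes, with a threshold of 0.05. Genes at the floor in the lower group are given as a bound against it. The pipeline was tested on simulated data. Precision is limited by the 2 arrays per group.

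Members, gene lists and alternatives were chosen with earlier results of these data known. Named genes were the 12 largest called rises and falls without overlap, the 12 farthest above and below the sum (each with a highest group mean of at least 50), the 8 largest called with both agents alone and off the sum, the 8 changes of at least 2 log2 units with the narrowest interval within 1.5-fold of the sum, up to 3 members of each list by moderated t (and 2 for the sum), and a fixed set of carnitine, antioxidant and strain genes; not all are described. The alternatives were other scalings (quantile, median, poly-A and hybridisation spikes), filters, no variance trend, an offset of 50, other call rules, all probe sets, only the 4 arrays compared, a replicate block and leaving out each array. Promoter sequences were not analysed here. Plots used matplotlib 3.10.9 (Python 3.11.15).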

Additional observations from a re-analysis of the deposited data

Results flagged for a closer look

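The results in this section stood out because limma called the combined effect different from the sum of the single effects. They are the 411 genes above the sum, the 272 below it and the members of those counts named below. Most of the named genes lost that call without some single array. The differences of ATR1, FES1, GSH1, KRR1 and SAG1 reversed when arrays were scaled to poly-A spikes. All differences are on the log2 scale. Among genes of the pentose phosphate, storage carbohydrate and stress lists, the differences above the sum were 3.21 for GND2, 2.47 for TKL2, 1.67 for SOL4, 1.54 for PGM2, 0.95 for TSL1, 1.97 for GSY1, 2.94 for GIP2 and 0.76 for GRE3. Among genes of the proteasome, DNA damage, antioxidant and Yap1-linked lists, the differences above the sum were 0.57 for PUP1, 0.41 for RPN10, 0.62 for RAD52, 1.10 for GPX1, 0.75 for GTT1, 0.81 for OYE3 and 1.33 for DDI3. Among genes of iron, phosphate and nutrient transport, the differences above the sum were 1.15 for FRE1, 1.30 for TIS11, 1.17 for FIT3, 2.10 for ENB1, 0.87 for FET3, 2.33 for PHO89, 1.91 for HXT11, 0.93 for HXT2, 2.70 for MAL11, 2.25 for MAL31, 0.52 for GAP1, 2.09 for PUT4, 2.37 for ATO2 and 1.14 for PNS1. Among genes of other roles, the differences above the sum were 2.35 for MRK1, 0.96 for CYM1, 1.72 for SHC1, 0.41 for ELO2, 1.46 for JLP1, 2.18 for SPS100, 1.48 for LSO1, 1.26 for YDL218W, 2.96 for YJR115W and 2.70 for YOL131W. Among genes of budding, mitosis, chromatin and mating-type switching, the differences below the sum were -3.46 for HOF1, -2.95 for SFG1, -2.34 for SWI5, -1.81 for CHS2, -1.73 for BUD4, -1.64 for HO, -2.09 for PCL2 and -0.96 for HTB2. Among genes of the cell surface and mating, the differences below the sum were -3.01 for DAN1, -1.81 for TIR1, -0.99 for TIR2 and -0.61 for SAG1. Among genes of metabolism, defence and ribosomes, the differences below the sum were -0.76 for MET16, -0.64 for MET5, -0.80 for ARG1, -0.76 for ACO1, -0.83 for YAT2, -0.80 for TSA2, -0.59 for ATR1, -0.31 for GSH1, -0.62 for FES1, -0.46 for KRR1 and -0.67 for RPS26B. Among genes of other or unknown roles, the differences below the sum were -2.29 for HMS1, -1.51 for SPS4 and -3.04 for YAL037C-A. The fitted differences of 1.35 for CRC1, 1.63 for ALP1 and -2.27 for YGR126W rest on control and carnitine arrays at the floor. A signal there is only a bound, so these sizes are not measured. The size for SPS100 rests on control arrays at or next to the floor, and that for SPS4 on combined arrays barely above it. Both are uncertain for that reason.

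Signal was also found in probe sets outside the comparisons. Of 3470 probe sets with no gene listed, controls left out, 416 lay above the floor, and in the same kind of fit 92 of these were higher with both agents than in the control, 59 were lower, 12 lay above the sum and 8 below. They are not named here.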

How the results depend on the processing

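With 2 arrays per group, small changes of dim genes are the least certain, and counts against the sum moved more than counts against control. Against control, rises and falls numbered 3108 and 723 with hybridisation spikes, 1203 rises with the filter at the 40th percentile, which tests fewer genes, and 676 and 572 with a 2-fold minimum. Leaving out each array gave 1671 to 1871 rises and 1854 to 2069 falls. Genes above and below the sum numbered 3895 and 40 with poly-A spikes, 155 above with hybridisation spikes, 173 below with no filter, 88 and 56 with a 2-fold minimum, and 716 and 533 at an adjusted p of 0.10. Leaving out each array gave 10 to 553 above and 3 to 416 below. The poly-A spikes read 6.11 and 6.04 (mean log2) on the peroxide arrays and 5.33 to 5.60 on the other 6, which sets the shift with that scaling. The hybridisation spikes read 11.23 and 11.13 (mean log2) on the control arrays and 10.767 and 10.545 on the combined arrays. These values set the shift against control with that scaling. The cause of the other shifts was not tested, beyond the fewer genes or samples named.

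Quantile normalization, median centring, no trend, an offset of 50, all probe sets and only the 4 arrays compared left each of these counts that they recomputed within 1.5 times its value. Of the named results, the differences from the sum that reversed with poly-A spikes were those of ATR1 (0.034), FES1 (0.010), GSH1 (0.31), KRR1 (0.17) and SAG1 (0.017). With hybridisation spikes the changes against control of GAP1 (0.22) and YAT1 (0.50, not called as deposited) were among those that reversed. Over the named results and settings 391 values of the difference from the sum and 19 of the change against control kept their direction without passing the test.

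Replicate numbers are shared between groups, but the labels do not say that a number marks a shared day or batch. The correlations of the deviations from group means were -0.11 between control and carnitine, 0.07 for control with peroxide and with both, 0.04 for carnitine with peroxide, 0.13 for carnitine with both and 0.12 for peroxide with both. With the replicate block 1879 genes rose, 2076 fell, 503 lay above the sum and 360 below, and with the numbers of the carnitine arrays crossed, chosen after seeing the data, the counts were 1862, 2058, 401 and 296.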
